A study of Mus musculus with 3 samples.

Results

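The respiratory chain genes of mouse arterial cells were described in 3 single-cell RNA libraries. A gene was a member when its symbol began with a prefix used for subunits of complexes I to V (mt-Nd, mt-Cyt, mt-Co and mt-Atp among genes of the mitochondrial genome, and Ndufa, Ndufb, Ndufc, Ndufs, Ndufv, Sdha to Sdhd, Uqcr, Cox4 to Cox8 and Atp5 among nuclear genes), with assembly factor, pseudogene and Ndufa4l2 symbols left out. This rule, which used no measured value, gave 97 of the 32285 genes in the files: 13 are encoded by the mitochondrial genome and 84 by the nucleus (37 of complex I, 4 of complex II, 8 of complex III, 18 of complex IV and 17 of complex V). The cells were digested from the arteries of WT mice and captured with the 10x Genomics 3′ chemistry. The study, on the heart toxicity of tyrosine kinase inhibitors and the ion channel PIEZO1, had 1 library of vehicle-treated mice, 1 of mice given sunitinib (a tyrosine kinase inhibitor that blocks VEGF and PDGF receptors, titled TKI in the labels) and 1 of mice given sunitinib and Yoda1, a chemical opener of PIEZO1 (the library is titled Yoda1 and the series design names sunitinib plus Yoda1). All 3 are labelled 3 weeks. Strain, sex, age, dose and the number of mice per library were not given in the sources used here.

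Complexes I, III and IV of the inner mitochondrial membrane pass electrons from NADH to oxygen and pump protons, complex II feeds in electrons from succinate without pumping, and complex V uses the proton gradient to make ATP. The mitochondrial genome encodes core subunits of complexes I, III, IV and V, while all of complex II and most other subunits come from nuclear genes, so assembly draws on both genomes. Endothelium makes much of its ATP by glycolysis, and several complex IV subunits exist as isoforms that differ between tissues.

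Each group was 1 library, so no spread between animals could be estimated and no test between groups was made. Values are CPM, the counts of UMIs (molecules counted by their unique identifiers) summed over the cells of a class and scaled to a common total, differences are log2 ratios of CPM, and each interval is a 95% interval of counting error only. Genes past a log2 ratio of 0.32 in either direction, called past the fold, were counted over genes with at least 50 UMIs in the compared libraries, called measured. The shares of all measured genes set beside member counts were not matched to the members in abundance. They include genes of low counts, whose ratios carry more counting error. The 3 libraries held 73901343, 66769480 and 28364203 UMIs, and 4187, 4424 and 3535 cells were kept, with medians of 16187, 15486.5 and 4983 UMIs per cell. The vehicle and sunitinib libraries were mostly smooth muscle-like cells (3976 and 4174), whereas the library of both compounds held 102 of these. Endothelial-like cells numbered 178, 238 and 541. All 10 smooth muscle markers and all 12 endothelial markers had a UMI in their classes. All 10 smooth muscle markers also had a UMI in endothelial-like cells of the vehicle and sunitinib libraries. Over the 3 libraries the smooth muscle list summed to 43184, 49693 and 34539 CPM in smooth muscle-like cells. In endothelial-like cells it summed to 6551, 8465 and 342 CPM. The endothelial list summed to 8664, 9161 and 8179 CPM in endothelial-like cells and to 74.2, 78.5 and 147 CPM in smooth muscle-like cells. Different clusters made up the classes: endothelial-like cells came from cluster 9 with vehicle and sunitinib and mainly from cluster 18 with both compounds (488 cells, led by Cd36, Gpihbp1 and Cldn5), and smooth muscle-like cells from clusters 0 to 8 and 11 in the first pair and from cluster 21 in the last (97 cells, led by Erbb4 and Kcnab1). The library of both compounds also differed in depth and in the Cell Ranger version (7.1.0 against 6.0.0). Version 7.1.0 counts intronic reads by default and 6.0.0 does not, but the setting used is not known here, so a CPM of the third library may include intronic reads. Treatment, library, cluster make-up and software cannot be told apart in any comparison with it.

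Messenger RNA of the mitochondrial genome made up 6.58% of all UMIs of smooth muscle-like cells with vehicle, 7.41% with sunitinib and 7.79% with both compounds. In endothelial-like cells the shares were 4.05%, 4.29% and 6.72%. The nuclear members stood differently: they held 2.32%, 2.36% and 2.10% of the UMIs outside mitochondrial genes in smooth muscle-like cells, and 1.86%, 1.88% and 1.41% in endothelial-like cells. Mitochondrial UMIs per nuclear member UMI therefore stood at 3.03, 3.39 and 4.02 in smooth muscle-like cells and at 2.28, 2.38 and 5.10 in endothelial-like cells, with the highest ratio of each class in the library of both compounds. Cells with over 15% mitochondrial UMIs numbered 231, 261 and 16 among smooth muscle-like cells, or 5.81%, 6.25% and 15.7% of them. Among endothelial-like cells they numbered 6, 15 and 140, or 3.37%, 6.30% and 25.9%. Malat1, a nuclear long noncoding RNA, stood at 22324, 22210.4 and 22679.6 CPM in smooth muscle-like cells and at 15376, 13169 and 11795 CPM in endothelial-like cells, and the part of these signs of RNA quality in the shares was not tested.

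**Figure D1:**
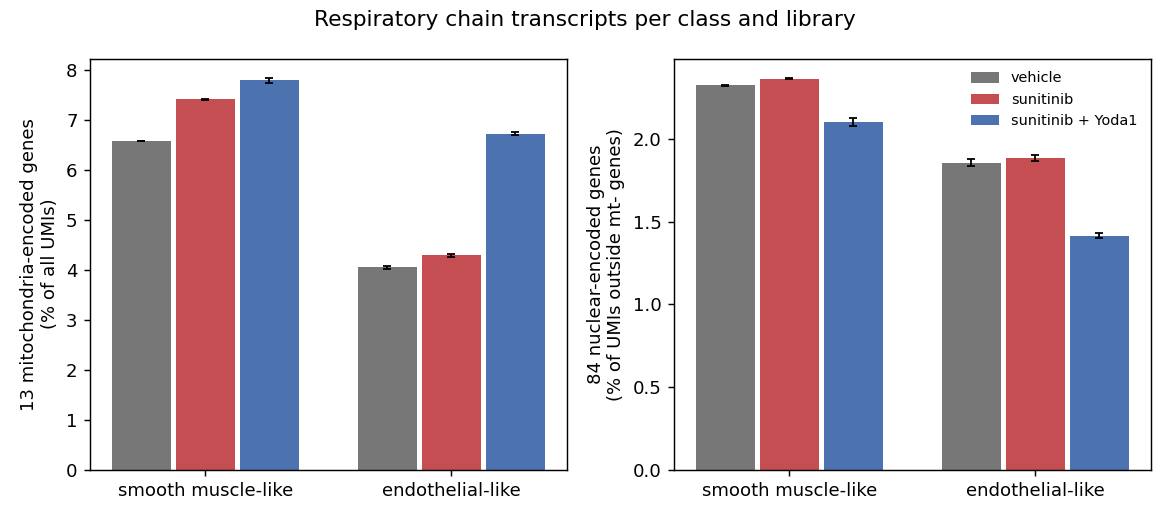
Share of UMIs from the 13 mitochondria-encoded members (percent of all UMIs) and from the 84 nuclear-encoded members (percent of UMIs outside mitochondrial genes), by class and library, as bars from 0 with 95% counting intervals. In endothelial-like cells the library of both compounds has the highest mitochondrial bar, 6.72%, and the lowest nuclear bar, 1.41%.

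The first comparison asked how sunitinib stood against vehicle in smooth muscle-like cells. The summed mitochondria-encoded members were higher in the sunitinib library, by log2 0.171 (95% interval 0.169 to 0.173), and the summed nuclear members were nearly level, at 0.011 (95% interval 0.0077 to 0.014). Scaling on the typical gene, by TMM factors or by the median of all gene ratios (both called scaling by the median gene), moved both down by 0.087 to 0.089, to 0.085 or 0.082 for the mitochondrial sum and to -0.076 or -0.078 for the nuclear sum, so the sign of the nuclear sum depended on the scaling. Of the 13 mitochondrial genes, 10 lay above 0 and 1 was past the fold, in the lower direction. Of all measured genes 18.2% were higher and 8.74% lower past the fold. With either scaling by the median gene 9 of the mitochondrial genes lay above 0.

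mt-Atp6, a proton channel subunit of complex V and the most abundant member, stood at 14473 CPM with vehicle and 17157 CPM with sunitinib, a log2 ratio of 0.25 (95% interval 0.24 to 0.25). Of the 7 complex I genes, which encode subunits of its membrane arm, 4 were at similar ratios, mt-Nd1 at 0.24, mt-Nd2 at 0.21, mt-Nd4 at 0.21 and mt-Nd5 at 0.18. mt-Cytb, the cytochrome b of complex III, was at 0.14. Complex IV was split, as the subunits mt-Co2 and mt-Co3 were at 0.16 and 0.23 and the catalytic subunit mt-Co1 was at -0.048 (6445 CPM with vehicle and 6234 CPM with sunitinib). mt-Nd3 was lower at 1390.3 CPM with vehicle and 1184 CPM with sunitinib, with a ratio of -0.23 (95% interval -0.25 to -0.22). mt-Nd4l was the 1 gene past the fold, at 549.9 CPM with vehicle and 378 CPM with sunitinib and -0.54 (95% interval -0.56 to -0.52). mt-Nd4l shares its messenger RNA and some bases with mt-Nd4, as mt-Atp8 does with mt-Atp6, so the split of UMIs within each pair is uncertain; mt-Atp8 stood at 214 CPM with vehicle and 243 CPM with sunitinib. mt-Nd6, the only member encoded on the other strand of the mitochondrial genome, was the least abundant of the 13, at 41.8 CPM with vehicle and 43.1 CPM with sunitinib (0.045).

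Among nuclear members, 0 of the 80 measured were higher and 3 lower past the fold in the sunitinib library, where 18.2% of all 12754 measured genes were higher and 8.74% lower. At 1.5-fold 0 were higher and 0 lower, beside 5.57% and 3.66% of all genes. Their median log2 ratio was 0.069, and that of all genes was 0.089. Above 0 were 54 of the 80, or 38 with either scaling by the median gene. Summed by complex, the ratios were 0.045 for complex I, 0.19 for complex II, -0.028 for complex III, -0.016 for complex IV and -0.0055 for complex V. The members past the fold were small subunits of complexes V and I. Atp5k, subunit e of ATP synthase, stood at 206 CPM with vehicle and 147 CPM with sunitinib, a ratio of -0.49 (95% interval -0.52 to -0.45). Ndufa3, an accessory subunit of complex I, was at 117 CPM with vehicle and 90.0 CPM with sunitinib (-0.37). Atp5md, a small membrane subunit of ATP synthase, was at 248 CPM with vehicle and 193 CPM with sunitinib (-0.36).

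All 4 subunits of complex II were higher in the sunitinib library on the UMI scale. Sdhd, a membrane anchor, had the highest ratio of any nuclear member, with 45.8 CPM with vehicle and 56.8 CPM with sunitinib and 0.31 (95% interval 0.24 to 0.38). The other anchor Sdhc was at 0.13, the iron-sulphur subunit Sdhb at 0.20 and the flavoprotein Sdha, which holds the succinate site, at 0.15, all within the fold. In complex I the iron-sulphur subunits Ndufs1 (37.1 CPM with vehicle and 45.1 CPM with sunitinib) and Ndufs8 were at 0.28 and 0.23, though Ndufs1 overlaps Eef1b2 on the other strand, the accessory subunit Ndufa8 at 0.23 and the short accessory subunit Ndufa1 at -0.25. Complex III ranged from the core subunit Uqcrc2 at 0.18 and the Rieske protein Uqcrfs1 at 0.16 to the small subunits Uqcr10 at -0.10 and Uqcr11 at -0.24. In complex IV the ends were Cox7a2l, which takes part in joining complexes into supercomplexes, at 0.22 and Cox6b2, at -0.23 and only 5.07 CPM with vehicle and 4.32 CPM with sunitinib. Among abundant complex IV subunits, Cox4i1 was at 0.12 and Cox7c at -0.22. In complex V, Atp5o, the stalk protein that confers oligomycin sensitivity, was at 0.23 and Atp5c1, the rotor's gamma subunit, at 0.21.

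Upstream sequence is shown for Atp5k and Sdhd, the nuclear members with the lowest and the highest of these ratios, as the 250 bases before the RefSeq start (GRCm38.p6), 5′ to 3′ on the strand of the gene. Capitals mark matches to 2 letter patterns of factors known to regulate many respiratory chain genes: NRF1 (GCGCNTGCGC) and GABP and other ETS proteins (CCGGAAG), each searched on both strands.
Atp5k, chr5:108434400-108434649, minus strand: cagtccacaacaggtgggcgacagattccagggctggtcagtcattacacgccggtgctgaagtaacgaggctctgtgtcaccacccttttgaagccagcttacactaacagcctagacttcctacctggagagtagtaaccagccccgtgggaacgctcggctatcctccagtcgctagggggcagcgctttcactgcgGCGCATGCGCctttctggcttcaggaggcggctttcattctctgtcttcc
Sdhd, chr9:50603850-50604099, minus strand: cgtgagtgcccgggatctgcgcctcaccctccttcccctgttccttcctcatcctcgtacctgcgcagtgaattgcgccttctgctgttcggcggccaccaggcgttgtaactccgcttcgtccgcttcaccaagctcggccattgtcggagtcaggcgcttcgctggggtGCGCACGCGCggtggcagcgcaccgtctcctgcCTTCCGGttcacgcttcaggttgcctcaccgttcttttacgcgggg
Atp5k held 1 NRF1 pattern, and Sdhd held 1 NRF1 and 1 ETS pattern. RefSeq promoters were found for 68 of the 84 nuclear members. A gene was counted when any of its promoters held the pattern. NRF1 patterns lay in 13 of these 68 (19.1%) against 4.23% of 27025 genes with promoters of the same length. ETS patterns lay in 12 (17.6%) against 7.83%. The pattern AAGGTCA of estrogen-related receptors lay in 5 (7.35% against 4.70%), and that of MEF2, a muscle factor, in 0 against 3.42%. These matches are letters in a window and were not measured as binding sites.

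The ratio of sunitinib to vehicle went with the coding length of the nuclear members. Spearman's rho across genes was 0.80 over the 80 measured members in smooth muscle-like cells and 0.74 over 77 in endothelial-like cells; genes are not independent replicates, and both values rest on the same 2 libraries. The relation was looked for after the member values were seen. With transcript length in place of coding length rho was 0.65 and 0.52, and with intron length 0.45 and 0.43. In smooth muscle-like cells the 20 members with under 300 coding bases had a median log2 ratio of -0.16, and 15 of them lay below 0. The 40 members from 300 to under 600 bases had a median of 0.069. The 11 members from 600 to under 1200 bases had 0.20 with all 11 above 0, and the 9 longer ones had 0.17 with 8 above 0. In endothelial-like cells the medians of the same bins were -0.11, 0.080, 0.38 and 0.22. Across all genes rho was -0.066 (11822 genes) and 0.010 (7296), and across the genes at 50 CPM or more it was -0.088 and 0.049. Among the latter genes the bin under 300 bases still had the lowest median. By rising length the medians were -0.031, 0.048, 0.060 and 0.0044 in smooth muscle-like cells. In endothelial-like cells they were -0.047, 0.059, 0.092 and 0.085. The 82 measured ribosomal protein genes, another group of short and abundant messenger RNAs, gave 0.81 and 0.78, and all 10 of those under 300 bases lay below 0, with medians of -0.55 and -0.60. The length relation was thus shared with ribosomal protein genes. Both compounds against sunitinib, a comparison that shares the sunitinib library, gave rho with coding length of -0.16 and -0.16 for nuclear members. Ribosomal protein genes gave -0.60 and -0.55 there, and all genes 0.38 and 0.37. What moves with the relation beyond length was not tested.

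**Figure D2:**
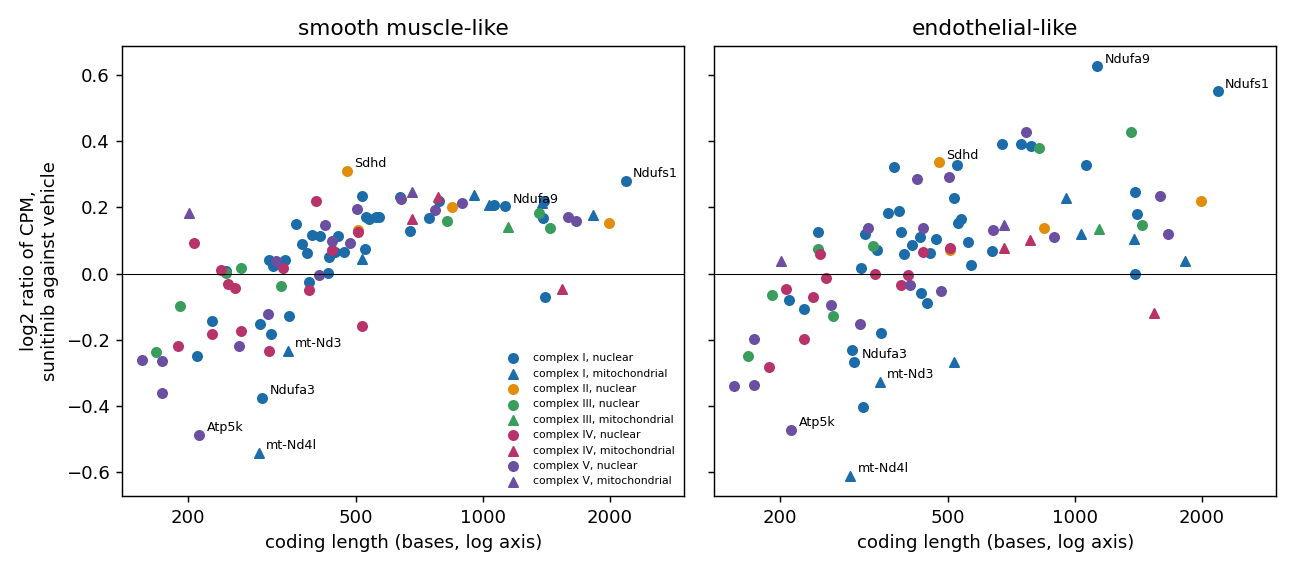
Log2 ratio of CPM, sunitinib to vehicle, against coding length in bases (log axis) for the measured members, in smooth muscle-like and endothelial-like cells; circles are nuclear and triangles mitochondria-encoded members, coloured by complex. Nuclear members under 300 bases mostly lie below 0 and those of 600 bases or more mostly above it (rho 0.80 and 0.74); under scaling by the median gene every point shifts down by 0.087 to 0.10.

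Within the clusters of smooth muscle-like cells, the mitochondrial sum was higher in the sunitinib library in clusters 0 to 8, by log2 0.055 in cluster 0 to 0.23 in cluster 6, and lower in cluster 11, at -0.39. The nuclear sum ranged from -0.092 in cluster 6 to 0.77 in cluster 8. Cluster 8 stood apart in both libraries, with 172 vehicle and 169 sunitinib cells of 2104 and 2123 UMIs at the median. Its mitochondrial share was 28.3% and 33.0%, which was 4.41-fold and 4.57-fold above the other smooth muscle-like cells. Its nuclear members were 9.63-fold lower with vehicle and 5.70-fold lower with sunitinib, and 78 of the 80 were lower in each library. The share of all genes lower there was not counted. Cox4i1 was 10.5-fold and 6.13-fold lower, the contractile gene Acta2 8.12-fold and 5.44-fold lower and its neighbour in function Tagln 5.96-fold and 4.76-fold lower, while Malat1 was 2.88-fold and 4.53-fold higher. The cells were clustered without the members and without mitochondrial genes, but Acta2, Tagln and Malat1 took part in it. Ribosomal protein genes were also low in cluster 8, at 1.28% of its UMIs with vehicle and 1.51% with sunitinib. In clusters 0 to 7 they held 10.3% to 12.4% and 9.26% to 11.7%, in that order. Cluster 8 stayed in the smooth muscle-like class. At the lower alternative resolution, a cluster of 173 vehicle and 170 sunitinib cells with 33.2% mitochondrial UMIs at the median was left unnamed. Cluster 11 (126 and 345 cells, medians of 1920 and 1354 UMIs) held 19.5% and 14.9% mitochondrial UMIs, and nuclear members at 1.85% and 2.25% of the other UMIs.

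**Figure D3:**
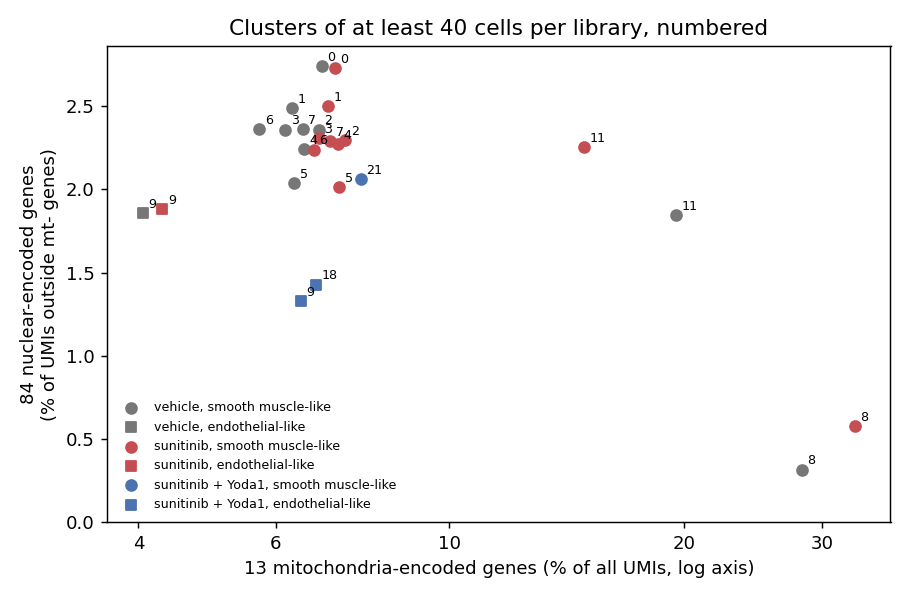
Mitochondria-encoded share (percent of all UMIs) against nuclear member share (percent of UMIs outside mitochondrial genes) for each cluster with at least 40 cells in a library, marked by class and library. Cluster 8 lies alone at high mitochondrial and low nuclear shares in both the vehicle library (28.3% and 0.317%) and the sunitinib library (33.0% and 0.577%).

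In endothelial-like cells the summed mitochondrial members were at 0.083 (95% interval 0.069 to 0.096) with sunitinib against vehicle, and the nuclear members at 0.016 (95% interval -0.0043 to 0.037). Both sums went below 0 under scaling by the median gene, to -0.017 or -0.019 and to -0.083 or -0.086. Of the 77 measured nuclear members 11 were higher and 4 lower past the fold, with 23.2% of all genes higher and 10.6% lower. At 1.5-fold 1 was higher and 0 lower, beside 7.06% and 3.9% of all genes. Scaled by the median gene, the split past the fold was 4 higher and 8 lower, or 33.3% higher in place of 73.3%. The shares of all genes were not counted on that scale. The 11 higher ones included core subunits of complexes I and III and a stalk subunit of complex V. The iron-sulphur subunit Ndufs1 stood at 26.9 CPM with vehicle and 39.4 CPM with sunitinib (0.55, 95% interval 0.041 to 1.07), and the accessory complex I subunit Ndufa9 at 31.6 CPM with vehicle and 48.7 CPM with sunitinib (0.63, 95% interval 0.16 to 1.10). Atp5f1, the peripheral stalk subunit b, was at 193 CPM with vehicle and 259 CPM with sunitinib (0.43, 95% interval 0.24 to 0.62). Uqcrc2 was at 0.43, Uqcrfs1 at 0.38, Sdhd at 0.34 (95% interval -0.042 to 0.72) and the ATP synthase subunits Atp5d and Atp5g3 at 0.29 and 0.29. The 4 lower members were Atp5k (152 CPM with vehicle and 109 CPM with sunitinib, -0.47), the complex I subunit Ndufb2 (-0.40) and the ATP synthase subunits Atp5e (-0.34) and Atp5md (-0.34). Atp5k and Atp5md were past the fold in both classes. Ndufa3 was at -0.27, Uqcr11 at -0.25, Uqcrh at -0.13, Cox7c at -0.28 and Cox6c at -0.20, whereas Cox4i1 was the highest measured nuclear complex IV member at 0.077. The mitochondrial genes mt-Nd4l and mt-Nd3 were again the lowest, at -0.61 (95% interval -0.80 to -0.42) and -0.33 (95% interval -0.44 to -0.21). Smooth muscle markers summed to 6551 CPM with vehicle and 8465 CPM with sunitinib in these endothelial-like cells, and the part of smooth muscle RNA in the values was not tested.

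The next comparison set both compounds against sunitinib alone. In smooth muscle-like cells the mitochondrial sum was at 0.073 (95% interval 0.064 to 0.082) and the nuclear sum at -0.175 (95% interval -0.193 to -0.157); scaling by the median gene, a shift of 0.24, put the mitochondrial sum at -0.17 or -0.16. Of 80 measured nuclear members 4 were higher and 18 lower past the fold, where 46.7% of all genes were higher and 21.3% lower. At 1.5-fold 3 were higher and 1 lower, beside 35.6% and 11.2% of all genes. Under the other scalings 55 or 53 were lower and 3 higher, so that 5.17% or 5.36% of those past the fold were higher in place of 18.2%. The shares of all genes past the fold were not counted under those scalings, whose shift lowers every gene alike. The median was -0.15 for nuclear members and 0.25 for all genes. All genes at 50 CPM or more were also split by coding length. Under 300 bases their median was -0.21, and that of nuclear members -0.023. From 300 to under 600 bases the medians were -0.30 and -0.22, in that order. From 600 to under 1200 bases they were -0.26 and -0.20, and above that 0.25 and -0.15. All 5 complexes had sums below 0, from -0.078 for complex II to -0.19 for complex IV. The higher members were the complex IV isoforms Cox4i2, described further on, and Cox7a1, at 0.810 CPM with sunitinib and 3.10 CPM with both compounds (1.94, 95% interval 0.0084 to 3.38) on 4 UMIs in the latter, with Atp5k at 147 CPM with sunitinib and 240.5 CPM with both compounds (0.71, 95% interval 0.54 to 0.87) and Ndufa3 at 90.0 CPM with sunitinib and 129 CPM with both compounds (0.52). Atp5k and Ndufa3 thus lay past the fold in opposite directions in the 2 comparisons, which share the sunitinib library.

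The lower nuclear members included Uqcrfs1, at 95.1 CPM with sunitinib and 67.5 CPM with both compounds (-0.49), with the hinge protein Uqcrh at -0.33. Complex I gave Ndufb3 at -0.50, Ndufa6 at -0.49 and Ndufa8 at -0.42. Complex V gave the coupling factor Atp5j at 472 CPM with sunitinib and 337 CPM with both compounds (-0.48), Atp5c1 at -0.47 and the proton ring gene Atp5g2 at -0.37. The 4 lower members of complex IV were Cox6b2 at -1.48 (95% interval -4.53 to 0.39) on 2 UMIs in the third library, Cox7a2l at -0.41, Cox6a1 at -0.40 and Cox5a at -0.34. Cox4i1, at 989 CPM with sunitinib and 792 CPM with both compounds, lay just inside the fold. Among the 13 mitochondrial genes, 4 were higher past the fold and 0 lower, beside 46.7% of all genes higher and 21.3% lower. These 4 were mt-Nd6 at 0.76, mt-Nd3 at 1184 CPM with sunitinib and 1787 CPM with both compounds (0.59, 95% interval 0.53 to 0.65), mt-Nd4l at 0.49 and mt-Co1 at 0.48. Scaled by the median gene 2 were higher and 1 lower, and the shares of all genes were not counted on that scale. The abundant mt-Atp6, mt-Cytb and mt-Co3 lay near 0, at -0.071, -0.012 and 0.036. Hemoglobin and other erythroid markers summed to 7.99, 1.48 and 569 CPM in smooth muscle-like cells of the 3 libraries.

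Endothelial-like cells showed the widest split between the genomes. Against sunitinib alone, the mitochondrial sum of the library of both compounds was at 0.647 (95% interval 0.636 to 0.658) and the nuclear sum at -0.450 (95% interval -0.471 to -0.429). Of the 13 mitochondrial genes 12 were higher past the fold, and of 78 measured nuclear members 5 were higher and 45 lower; over all genes 41.9% were higher and 31.8% lower. At 1.5-fold 9 mitochondrial genes were higher, and 2 nuclear members were higher and 24 lower, beside 32.9% and 22% of all genes. The nuclear members' median was -0.46 beside 0.12 for all genes. All genes at 50 CPM or more were also split by coding length. Under 300 bases their median was -0.49, and that of nuclear members -0.30. From 300 to under 600 bases the medians were -0.55 and -0.50, in that order. From 600 to under 1200 bases they were -0.34 and -0.55, and above that 0.35 and -0.38. The lower members came from every complex: 20 of 37 in complex I, 2 of 4 in complex II, 7 of 8 in complex III, 6 of 12 measured in complex IV and 10 of 17 in complex V. The gap in the mitochondrial sum narrowed to 0.31 in cells with at most 15% mitochondrial UMIs and to 0.32 in cells with more than 5000 UMIs, and stood at 0.59 in cluster 9 alone (53 cells with both compounds), where the nuclear sum was -0.54. Smooth muscle markers summed to 342 CPM in this library against 8465 with sunitinib, and erythroid markers to 29783 CPM against 2.66; the part of either in the member ratios was not tested.

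Among nuclear members Cox7a2l had the lowest ratio, with 519 CPM in the vehicle library, 517 with sunitinib and 213 with both compounds, a ratio to sunitinib of -1.28 (95% interval -1.43 to -1.13). Uqcrh followed at 663, 607 and 298 CPM (-1.03, 95% interval -1.16 to -0.90). In both genes the vehicle and sunitinib libraries were close and the third stood below them. The same order held for Atp5g2, a gene of the proton ring, at 378, 416 and 217 CPM (-0.94, 95% interval -1.09 to -0.79), for Ndufa13 at 345, 331 and 186 CPM (-0.83, 95% interval -1.0 to -0.66) and for Ndufa11 at 154, 166 and 93.2 CPM (-0.83, 95% interval -1.07 to -0.59). Atp5g3 was at -0.79, Cox8a at -0.78, Uqcrfs1 at -0.74, Sdhd at -0.68 (95% interval -1.05 to -0.31) and Cox4i1 at -0.65. In complex II, Sdha was at -0.38, Sdhc at -0.21 and Sdhb at -0.049. The higher nuclear members were Ndufs8 (48.2 CPM with sunitinib and 72.6 CPM with both compounds, 0.59), Atp5k (0.52), Ndufa8 (0.40), Ndufa3 (0.35) and the isoform Cox8b. Atp5mpl and Cox5a lay near 0, at 0.10 and 0.055, and Uqcrc2 and Uqcrq were the highest of complex III at -0.35 and -0.14.

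The mitochondrial genes differed among themselves. mt-Nd6 stood at 52.2, 43.4 and 122 CPM in the 3 endothelial-like groups, with the highest ratio to sunitinib, 1.49 (95% interval 1.16 to 1.83). mt-Nd3 was at 549 CPM with sunitinib and 1442 CPM with both compounds (1.39) and mt-Nd4l at 1.23. The genes with the lowest ratios to vehicle in the sunitinib library were thus among the highest here, and the 2 comparisons share that library. mt-Co1 was at 4546 CPM with sunitinib and 8897 CPM with both compounds (0.97), mt-Nd1 at 0.90, mt-Co3 at 0.77, mt-Nd2 at 0.76, mt-Co2 at 0.67, mt-Nd5 at 0.65, mt-Cytb at 0.55 and mt-Nd4 at 0.47. The complex V pair lay lowest, mt-Atp6 at 0.33 and mt-Atp8 at -0.14 (95% interval -0.33 to 0.058), the 1 mitochondrial gene within the fold.

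**Figure D4:**
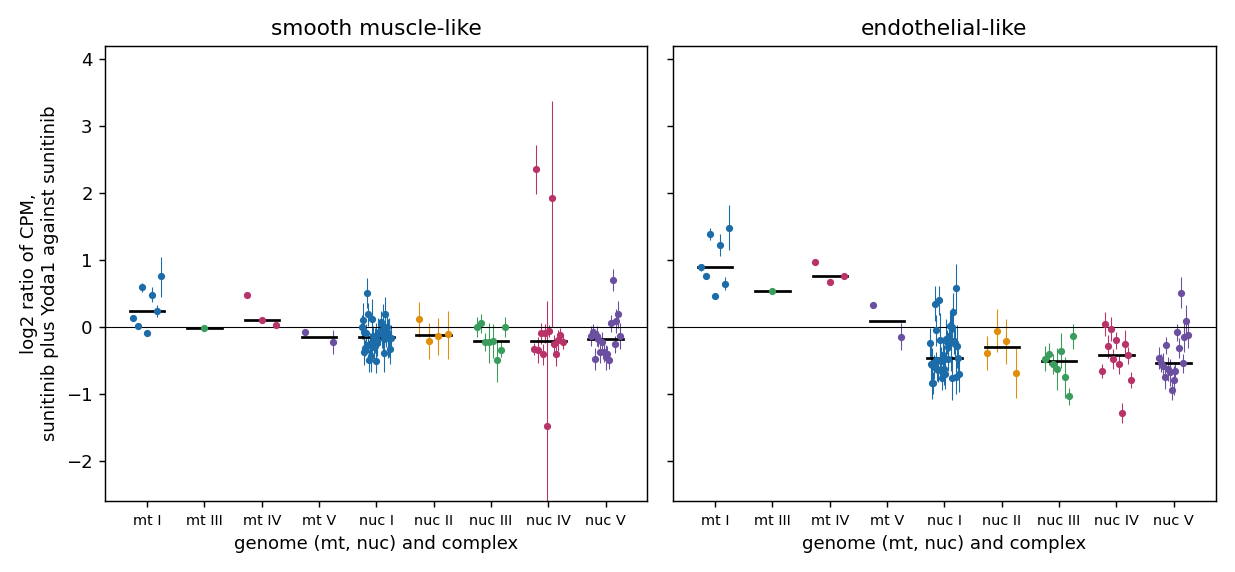
Log2 ratio of CPM of each measured member, both compounds to sunitinib alone, by complex and genome in smooth muscle-like and endothelial-like cells; points are genes, black bars are medians, and lower bounds such as Cox8b are not drawn. The thin horizontal line marks 0. In endothelial-like cells 12 of 13 mitochondrial genes lie above log2 0.32, a value not drawn, and the nuclear median is -0.46. In smooth muscle-like cells the mitochondrial sum of 0.073 goes below 0 under scaling by the median gene.

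Within each library, smooth muscle-like cells were set against endothelial-like cells. The mitochondrial sum was higher in smooth muscle-like cells by log2 0.70 with vehicle, 0.79 with sunitinib and 0.21 with both compounds, and the nuclear sum by 0.29, 0.28 and 0.56. Nuclear members past the fold were 42 higher and 3 lower of 80 with vehicle, where 32.7% of all genes were higher and 37.2% lower. With sunitinib they were 34 and 3 of 80 (30.8% and 38.2% of all genes), and with both compounds 60 and 3 of 79 (28.4% and 40.6%). At 1.5-fold the counts were 17 and 2 (23.4% and 27.3% of all genes), 15 and 1 (22.3% and 26.9%) and 35 and 2 (19.7% and 29.3%). Complex I held many of them, 24, 19 and 30 of 37. Ndufa11, a complex I membrane subunit, gave ratios of 1.05, 0.94 and 1.70 in the 3 libraries, and Ndufa13 gave 0.63, 0.74 and 1.26. Ndufb9, an accessory subunit, gave 0.81, 0.81 and 1.21. Cox7a2l went the other way, with -1.12, -0.90 and -0.023, as did Sdha with vehicle and sunitinib (-0.38, -0.45 and 0.062). Among mitochondrial genes mt-Nd1 gave 1.08, 1.09 and 0.33 and mt-Nd3 1.01, 1.11 and 0.31, and only mt-Nd6 had negative ratios in all 3, at -0.32, -0.0086 and -0.74. Endothelial-like cells of the first pair held smooth muscle markers at 6551 and 8465 CPM, and those of the last at 342 CPM, beside 43184, 49693 and 34539 CPM in smooth muscle-like cells.

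Complex IV has tissue isoforms, and with both compounds against sunitinib these gave the largest ratios among measured members. The common isoforms Cox4i1, Cox6a1, Cox7a2 and Cox8a stood at 908, 327, 466 and 705 CPM in vehicle smooth muscle-like cells. Cox6b1 was at 337 CPM in the vehicle library, 327 in the sunitinib library and 307 in the library of both compounds, and its testis isoform Cox6b2 at 5.07, 4.32 and 1.55 CPM. Cox8c had 0 UMIs in both classes of every library. Ndufa4, named as a complex I gene and since assigned to complex IV, was at 582 CPM in the vehicle library, 585 in the sunitinib library and 486 in the library of both compounds.

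Cox4i2, the isoform known from lung and from oxygen-sensing cells, stood in smooth muscle-like cells at 11.6 CPM in the vehicle library, 10.4 in the sunitinib library and 53.5 in the library of both compounds, a ratio of both compounds to sunitinib of 2.36 (95% interval 1.99 to 2.72). In endothelial-like cells it was at 3.62, 5.31 and 5.44 CPM. Its levels in the third library were highest in cluster 21, at 55.4 CPM (69 UMIs in 27 of 97 cells, interval 43.1 to 70.1), and in the macrophage-like cluster 19, at 40.8 CPM (12 UMIs in 9 of 150 cells, interval 21.1 to 71.3). The same cluster 21 held Ndufa4l2, a relative of Ndufa4 that is no member, at 96.3 CPM (120 UMIs in 19 of 97 cells, interval 79.8 to 115), and the pericyte marker Higd1b at 40.9 CPM (51 UMIs in 11 of 97 cells, interval 30.5 to 53.8). Pericyte markers as a list summed to 2273, 2192 and 1623 CPM in smooth muscle-like cells of the 3 libraries. Rgs5 made up most of these sums, at 1850.3, 1763 and 1054 CPM, and the rest of the list summed to 422, 429.6 and 569 CPM. Cspg4, the largest of that rest, was lowest in the third library, at 268, 272 and 251 CPM. Kcnj8 was at 26.4, 38.7 and 63.6 CPM, Abcc9 at 128, 118 and 195 CPM, Vtn at 0, 0 and 19.4 CPM and Higd1b at 0.028, 0.047 and 39.6 CPM. The part of pericytes in the Cox4i2 value was not tested.

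Cox8b, Cox7a1 and Cox6a2 are isoforms known from heart and skeletal muscle, and Cox8b and Cox7a1 also from brown fat. Cox8b was at 1 UMI in vehicle endothelial-like cells, 0 with sunitinib and 63 with both compounds (24.5 CPM), at least 18.4-fold higher than with sunitinib when the 0 is set at the floor of 3 counts for that library. All of them lay in cluster 18, at 27.9 CPM (63 UMIs in 43 of 488 cells, interval 21.4 to 35.7), and the other clusters of the library stood at 0 to 10.2 CPM, the last with 3 UMIs. Cox7a1 was at 2, 2 and 30 UMIs, and cluster 18 held 12.8 CPM (29 UMIs in 20 of 488 cells, interval 8.60 to 18.4). Cox6a2 was at 0, 0 and 13 UMIs in endothelial-like cells, and its highest level lay in the macrophage-like cluster 13, at 26.9 CPM (49 UMIs in 7 of 132 cells, interval 19.9 to 35.5). Cox6a2 (chr7:128205435-128206387, minus strand, GRCm38) overlaps Itgad, an integrin gene of macrophages on the other strand, so the split of UMIs within that pair is uncertain. Cox8a, by contrast, stood at 644 CPM in the vehicle library, 624 in the sunitinib library and 362 in the library of both compounds in endothelial-like cells.

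Markers of other tissues were set beside these isoforms. All 7 brown adipocyte markers had a UMI in endothelial-like cells of the third library, against 1 in each of the others, and the list summed to 3.62, 20.8 and 83.5 CPM; Ucp1, the uncoupling protein that defines brown fat, stood in cluster 18 at 35.4 CPM (80 UMIs in 54 of 488 cells, interval 28.1 to 44.1). Cardiomyocyte markers summed to 11.9, 11.9 and 58.7 CPM, with Myl2 at 0. In smooth muscle-like cells the cardiomyocyte list summed to 63.7, 68.1 and 372 CPM. Ryr2 was the largest part of this sum in each library, and most of it with vehicle and with sunitinib. In the third library Actc1 and Tnnt2 came next, and Myh6 and Myl2 had no UMI. The brown adipocyte list summed to 47.0, 108 and 14.7 CPM in these cells, nearly all of it Cidea (46.9, 107 and 11.6 CPM). The part of RNA from these tissues in the isoform values was not tested. The 250 bases before the RefSeq starts (GRCm38.p6) of Cox8a and Cox8b, both in lower case because neither held a match to the NRF1, ETS, estrogen-related receptor or MEF2 pattern, are shown as the sequences of an isoform pair with opposite ratios.
Cox8a, chr19:7217617-7217866, minus strand: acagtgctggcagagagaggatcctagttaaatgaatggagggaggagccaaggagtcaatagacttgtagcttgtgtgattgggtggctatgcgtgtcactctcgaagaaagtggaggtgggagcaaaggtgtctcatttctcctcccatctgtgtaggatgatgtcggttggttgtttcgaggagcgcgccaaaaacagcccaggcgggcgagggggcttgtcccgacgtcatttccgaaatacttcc
Cox8b, chr7:140900447-140900696, minus strand: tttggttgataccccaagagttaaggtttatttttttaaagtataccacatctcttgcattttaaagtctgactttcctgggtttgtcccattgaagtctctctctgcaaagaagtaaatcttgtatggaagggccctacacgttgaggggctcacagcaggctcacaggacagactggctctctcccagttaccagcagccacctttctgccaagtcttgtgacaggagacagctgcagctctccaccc
Guanine and cytosine made up 52.8% of the Cox8a window and 47.2% of the Cox8b window, against 57.6% for Atp5k and 64.4% for Sdhd.

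**Figure D5:**
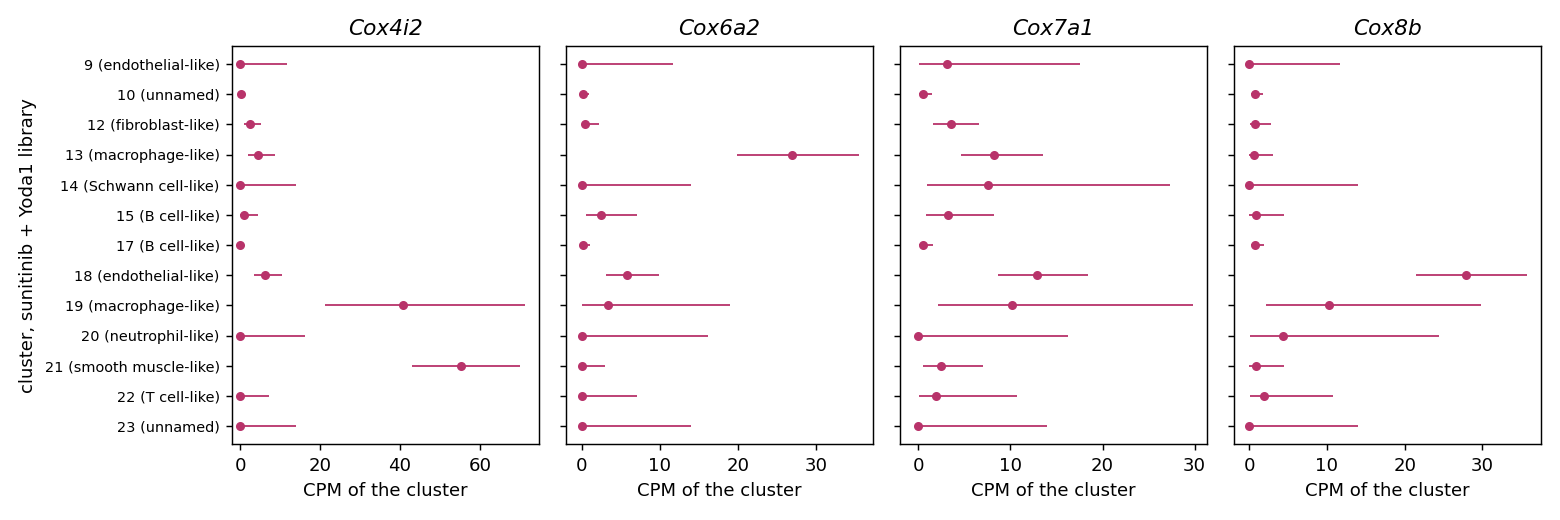
CPM of Cox4i2, Cox6a2, Cox7a1 and Cox8b in each cluster of the library of both compounds, as points with exact Poisson 95% intervals. Cox4i2 is highest in cluster 21 (55.4 CPM), Cox8b and Cox7a1 in cluster 18 (27.9 and 12.8 CPM) and Cox6a2 in cluster 13 (26.9 CPM).

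The other clusters of the third library, counting those of at least 50 cells, give a scale for both classes. Mitochondrial shares were 4.31% in the fibroblast-like cluster 12, 3.58% in the macrophage-like cluster 13, 7.28% in the Schwann-like cluster 14, 5.07% and 6.37% in the B cell-like clusters 15 and 17, 3.78% in the neutrophil-like cluster 20 and 5.72% in the T cell-like cluster 22. Nuclear member shares in the same order were 1.44%, 1.75%, 1.74%, 1.91%, 1.13%, 0.804% and 1.39%. The highest of both shares lay in the macrophage-like cluster 19, with 12.7% and 2.31% at a median of 1091.5 UMIs. Endothelial-like cluster 18, at 6.76% and 1.43%, and cluster 9, at 6.46% and 1.33%, lay inside the range of the other clusters. Smooth muscle-like cells, at 2.10%, were above all of the clusters but 19 in nuclear share.

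Cell by cell, the mitochondrial share had medians of 6.49% (quartiles 5.56% and 7.54%) with vehicle, 7.05% (5.95% and 8.31%) with sunitinib and 6.91% (5.61% and 9.56%) with both compounds in smooth muscle-like cells. In endothelial-like cells they were 4.26% (3.26% and 5.97%), 4.29% (3.02% and 6.26%) and 7.55% (4.25% and 15.1%), so the upper quartile of the last group stood farthest from its median. The share was higher in endothelial-like cells with fewer UMIs, with Spearman's rho across cells of -0.50, -0.28 and -0.69. Among cells with at least 5000 UMIs and at most 15% mitochondrial UMIs, the mitochondrial share and the nuclear member share had rho of 0.12, 0.016 and 0.30 in smooth muscle-like cells (3649, 3530 and 81 cells) and of -0.099, 0.14 and 0.17 in endothelial-like cells (128, 138 and 165 cells). The cells of each group share a library and its depth, and these values are a description.

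Genes around the respiratory chain were described from lists of assembly factors, regulators of mitochondrial biogenesis, citrate cycle enzymes, glycolytic enzymes and mitochondrial ribosomal proteins. With sunitinib against vehicle in smooth muscle-like cells, 8 of 40 measured assembly factors were higher and 0 lower past the fold, 5 of 21 biogenesis genes were higher and 2 lower, 0 of 16 citrate cycle genes were past the fold, 0 of 15 glycolytic genes were higher and 2 lower, and 5 of 78 mitochondrial ribosomal protein genes were higher and 1 lower, beside 18.2% of all genes higher and 8.74% lower. The 8 of 40 and 5 of 21 are near the share of all genes. Sdhaf1, which helps to mature the iron-sulphur subunit of complex II, stood at 15.2, 22.9 and 20.9 CPM, a ratio of 0.59 (95% interval 0.48 to 0.71); in endothelial-like cells it was at 1.03 (95% interval 0.31 to 1.80). Pprc1, a relative of PGC-1 coactivators, was at 14.1, 7.85 and 10.1 CPM (-0.85, 95% interval -1.01 to -0.69). Hk2, the hexokinase that starts glycolysis, was at 102, 51.1 and 17.8 CPM (-1.0, 95% interval -1.06 to -0.94), and at 16.6, 7.97 and 0.388 CPM in endothelial-like cells. The last value lies under the floor of 3 counts, 1.17 CPM there. Smooth muscle markers summed to 6551, 8465 and 342 CPM in these endothelial-like cells, and the part of smooth muscle RNA in their Hk2 values was not tested. Tfam, a factor that takes part in the transcription and packing of mitochondrial DNA, was at 19.4, 23.4 and 20.9 CPM. In endothelial-like cells 7 of 23 assembly factors, 6 of 16 citrate cycle genes and 22 of 74 mitochondrial ribosomal protein genes were higher, and 2, 0 and 2 lower, beside 23.2% and 10.6% of all genes.

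With both compounds against sunitinib, 46.7% of all genes were higher and 21.3% lower in smooth muscle-like cells, and 41.9% and 31.8% in endothelial-like cells. Of the mitochondrial ribosomal protein genes 5 of 78 were higher and 24 lower in smooth muscle-like cells, and 1 of 76 was higher and 45 lower in endothelial-like cells, with medians of -0.19 and -0.39. Citrate cycle genes were 2 of 16 higher and 4 lower (median -0.079), and 3 of 16 higher and 5 lower (median -0.088). Glycolytic genes were 2 of 15 higher and 5 lower (median -0.23), and 3 of 13 higher and 6 lower (median -0.082). Assembly factors were near the shares of all genes, with 16 of 40 higher and 6 lower (median 0.15), and 10 of 27 higher and 8 lower (median -0.036). Biogenesis genes were 10 of 21 higher and 3 lower (median 0.26), and 7 of 13 higher and 4 lower (median 0.37). Cycs, the cytochrome c that carries electrons to complex IV, was at 143, 141 and 73.7 CPM in smooth muscle-like cells, and Cyc1, the cytochrome of complex III outside the symbol rule, at 99.7, 109.7 and 105 CPM. Nrf1, the gene of the NRF1 factor, was at 10.6, 11.4 and 40.3 CPM in smooth muscle-like cells and at 16.0, 18.1 and 75 CPM in endothelial-like cells. Across all genes the ratio of both compounds to sunitinib went with intron length (Spearman's rho 0.47 and 0.48 over 11797 and 8513 genes in the 2 classes), and across the nuclear members it did not (-0.099 and 0.0074); the part of intronic reads in any gene's ratio was not tested.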

How the data were processed

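UMI counts per gene and cell were deposited by the authors as 1 matrix per library, made, per the file headers, with Cell Ranger 6.0.0 except that 7.1.0 made the library of both compounds; mm10, Cell Ranger and Seurat are named in the submitters' processing notes. Whether introns were counted, which annotation was used and whether doublets or free RNA were removed are points not given in the sources used here; 7.1.0 counts introns by default and 6.0.0 does not. Barcodes with at least 500 UMIs and 300 genes were kept: 4187 of 4491 with vehicle, 4424 of 4506 with sunitinib and 3535 of 5118 with both compounds. Libraries shared at most 5 barcodes. Cells were clustered with scanpy 1.11.5 (2000 variable genes, 30 components, 15 neighbours, resolution 1) without the members or mitochondrial genes and without integration. A cluster was named from at least 3 markers raised 2-fold; after cluster 10 had been named erythroid by this rule, the rule was tightened and the cluster left unnamed. Scrublet marked 28 of 12146 cells (0.231%), too few to have worked, so doublets stayed in. UMIs were summed per class and library; ratios have exact conditional binomial intervals, and a class needed 50 cells. The calculation was tested on simulated data. Scaling by the median gene used edgeR 4.0.16 (TMM factors) or DESeq2 1.42.0 (median-of-ratios size factors) for factors only. Named genes were the mitochondria-encoded, Sdh and isoform genes, the 2 highest and 2 lowest nuclear members of complexes I, III, IV and V in each comparison, and genes of the related lists. Promoters came from RefSeq, coding lengths from GENCODE. The members, lists and tests were chosen with earlier results of these data known; the length relation, the description of cluster 8 and 2 alternatives (cluster 9 alone, more than 5000 UMIs) were added after seeing the data.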

Additional observations from a re-analysis of the deposited data

How the results depend on the processing

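Each group was 1 library, so leaving out a library gives no value, and intervals cover counting error only. No paired analysis was possible because each group was 1 library. Over 82 alternatives for the 8 summed ratios, 28 stayed within the counting interval and 54 moved outside it; the causes were not tested. At resolution 0.5, 5 smooth muscle-like cells were left with both compounds, under the minimum of 50, so no value is given; that minimum was applied there after the value had been seen.

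For sunitinib against vehicle, the mitochondrial sum in smooth muscle-like cells (0.17) was 0.155 at 15% and 0.159 at 25% mitochondrial UMIs at most, 0.184 over UMIs outside mitochondrial genes, 0.085 with TMM, 0.082 with median-of-ratios factors, 0.154 with a marker gate, 0.175 at resolution 0.5 and 0.053 as a mean over cells. The nuclear sum (0.011) was 0.016, 0.024 outside mitochondrial genes, -0.076, -0.078, 0.0074 with the gate and 0.0069 as a mean. In endothelial-like cells the mitochondrial sum (0.083) was 0.016 at 15%, -0.017 and -0.019 with the factors, -0.030 with the gate, 0.053 at resolution 0.5, 0.15 as a mean, 0.049 without Scrublet's highest scores (397 cells in all) and 0.054 over 5000 UMIs. The nuclear sum (0.016) was -0.083, -0.086, 0.043 as a mean and -0.021 without Scrublet's cells.

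For both compounds against sunitinib, the mitochondrial sum in smooth muscle-like cells (0.073) was -0.061 at 15%, 0.036 at 25%, -0.17, -0.16, 0.046 with the gate, 0.24 as a mean and 0.022 over 5000 UMIs. The nuclear sum (-0.175) was -0.148 at 15%, -0.41 and -0.41 with the factors and -0.26 as a mean. In endothelial-like cells the mitochondrial sum (0.65) was 0.31, 0.47, 0.68 outside mitochondrial genes, 0.55, 0.54, 0.52 with the gate, 0.90 as a mean, 0.79 without Scrublet's cells, 0.32 over 5000 UMIs and 0.59 in cluster 9. The nuclear sum (-0.45) was -0.41 outside mitochondrial genes, -0.54, -0.56, -0.41 with the gate, -0.31 as a mean, -0.33 without Scrublet's cells and -0.54 in cluster 9.

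Shares of all genes past the fold were counted with the main scaling and cells only. Counts of nuclear members past the fold moved by over 1.5 times as follows. In endothelial-like cells with sunitinib the higher ones were 4 with either factor and 1 at 1.5-fold, and the lower ones 8, 8 and 0. With both compounds the higher ones were 3 at 15%, 3 and 3 with the factors, 9 as a mean, 1 in cluster 9 and 2 at 1.5-fold, and the lower ones 24 at 1.5-fold. In smooth muscle-like cells with sunitinib the higher ones were 1 outside mitochondrial genes, 1 as a mean and 2 without the minimum of 50 UMIs, and the lower ones 7, 7 and 0 at 1.5-fold. With both compounds the lower ones were 55 and 53 with the factors and 1 at 1.5-fold.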
